A study of Homo sapiens with 12 samples.

Results

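The interstitial matrix is the mesh of collagen fibrils, adhesive glycoproteins, microfibrils and proteoglycans that lies between cells, outside the basement membrane. The 42 genes described here encode its interstitial collagens, adhesive and matricellular proteins, microfibril proteins, proteoglycans and the enzymes that hydroxylate and crosslink collagen. They were taken by name from a list drawn up with earlier results of these data known, after the Ensembl identifiers of the count table had been matched to gene symbols. All 42 were found among the 61806 identifiers of the table, of which 39548 had a count in any library.

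RNA-seq after poly(A) selection was carried out on 12 libraries of human liver cancer cells, in 4 groups of 3, to compare lower and higher levels of CD146, a cell surface adhesion molecule encoded by MCAM. Libraries labelled Hep3B expressed, from a tetracycline-inducible (Tet-on) construct, either a control shRNA or an shRNA against CD146. HepG2 libraries carried either the pLVX vector or a vector expressing CD146. Hep3B and HepG2 are established lines from human liver tumours, grown per the labels in different media (DMEM and MEM), so line, medium and method of perturbation cannot be told apart. The titles number the libraries 1 to 3 within each group and do not say whether the numbers stand for separate cultures, clones or, for the shRNAs, separate hairpins. The p-values therefore measure only the spread among these libraries, and this spread may be technical.

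Collagens are trimers whose chains are hydroxylated in the endoplasmic reticulum by prolyl and lysyl hydroxylases before secretion, and are crosslinked outside the cell by lysyl oxidases. Fibrillins and latent TGF-beta binding proteins (LTBPs) form microfibrils that store the growth factor TGF-beta, while matricellular proteins such as thrombospondins and the CCN family act as signals more than as scaffold. In liver, hepatocytes secrete fibronectin and vitronectin into plasma, and stellate cells and fibroblasts are the known source of most type I and type III collagen in fibrosis.

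Libraries held 12.8M to 18.1M counts (M, 1e6), so that 3 counts, the floor of detection used here, were worth 0.165 to 0.235 CPM (counts scaled to a library total of 1e6). This floor covers counting error only. MCAM differed as labelled: the CD146 shRNA libraries held 22.0, 24.2 and 26.9 CPM against 112 to 119 CPM in the controls (log2 fold change -2.25, edgeR adjusted p = 5.5e-29), and CD146 overexpression gave 1897 to 1954 CPM against 22.9 to 23.7 CPM with pLVX (log2 fold change 6.37, adjusted p = 5.6e-67).

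Several libraries stood apart in ways that touch the matrix genes. Of 16 hepatocyte markers, only 2 or 3 exceeded 3 counts in 5 of the 6 libraries labelled Hep3B, but 14 did in CD146 shRNA replicate 3. ALB, the gene of albumin, had 0 to 5 counts in those 5 libraries, 298 in CD146 shRNA replicate 3 and 208167 to 349520 in HepG2. The summed CPM of the 16 markers was between 0.0055% and 0.0093% of the pLVX mean in the 5 libraries and 0.110% in CD146 shRNA replicate 3. Since hepatocyte transcripts were at or near 0 in most of these libraries, Hep3B is used here only as a label. CD146 shRNA replicates 1 and 2, in turn, held more transcripts of several collagens than replicate 3, as given below. In such bulk samples, a change in the share of cells of a type and a change in RNA per cell cannot be told apart.

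The lines held very different matrix transcripts. Levels are given as FPKM, which are scaled by gene length and so can be compared between genes. In control shRNA libraries, 22 of the 42 members reached a mean of 1 FPKM and 9 reached 10 FPKM. With pLVX these numbers were 14 and 6. Only the lysyl hydroxylases PLOD1 and PLOD2 stood at 10 FPKM or more in both control groups, and 15 members stood under 1 FPKM in both.

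EFEMP1, which encodes the secreted glycoprotein fibulin-3, led the libraries labelled Hep3B with 146, 161 and 163 FPKM with the control shRNA. It made up 38.1%, 40.2% and 39.6% of the summed FPKM of the 42 members there. COL7A1, the anchoring fibril collagen, followed at 42.6 ± 0.333 FPKM (SD, n = 3), then PLOD1 at 26.7 ± 0.472, COL6A1 at 20.9 ± 0.821 and COL5A1 at 20.3 ± 0.496. COL6A1 and COL5A1 did not differ beyond their spread. PLOD2, the fibrillin FBN2, COL12A1 and LTBP1 stood between 10.4 and 18.9 FPKM.

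FN1, the gene of fibronectin, led HepG2 with 566, 532 and 545 FPKM with pLVX, which was 69.0%, 67.9% and 68.5% of the summed FPKM of the members. VTN (vitronectin, an adhesive plasma protein) followed at 79.4 ± 2.72 FPKM, COL27A1, a fibrillar collagen known from cartilage, at 43.4 ± 0.508, and TGFBI, an adhesive protein named for its induction by TGF-beta, at 41.3 ± 0.66. The same 4 genes stood at 0.247, 0.437, 0.08 and 0.127 FPKM in control shRNA libraries. EFEMP1 stood at 0.0533 FPKM with pLVX.

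Partner chains of the same collagen were unequal in libraries labelled Hep3B. COL1A1, whose protein joins with that of COL1A2 in type I collagen, stood at 6.51 ± 0.424 FPKM with the control shRNA and COL1A2 at 0.02 FPKM in each of the 3 libraries. COL5A1 stood at 20.3 FPKM and its partner COL5A2 at 0.0667. COL6A1 stood at 20.9 FPKM, while COL6A2 stood at 0.0567 and COL6A3 was listed at 0. In HepG2 with pLVX, COL5A2 was the higher of its pair (0.557 against 0.0333 FPKM) and COL1A1 and COL1A2 stood at 0.15 and 0.11 FPKM.

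**Figure D1:**
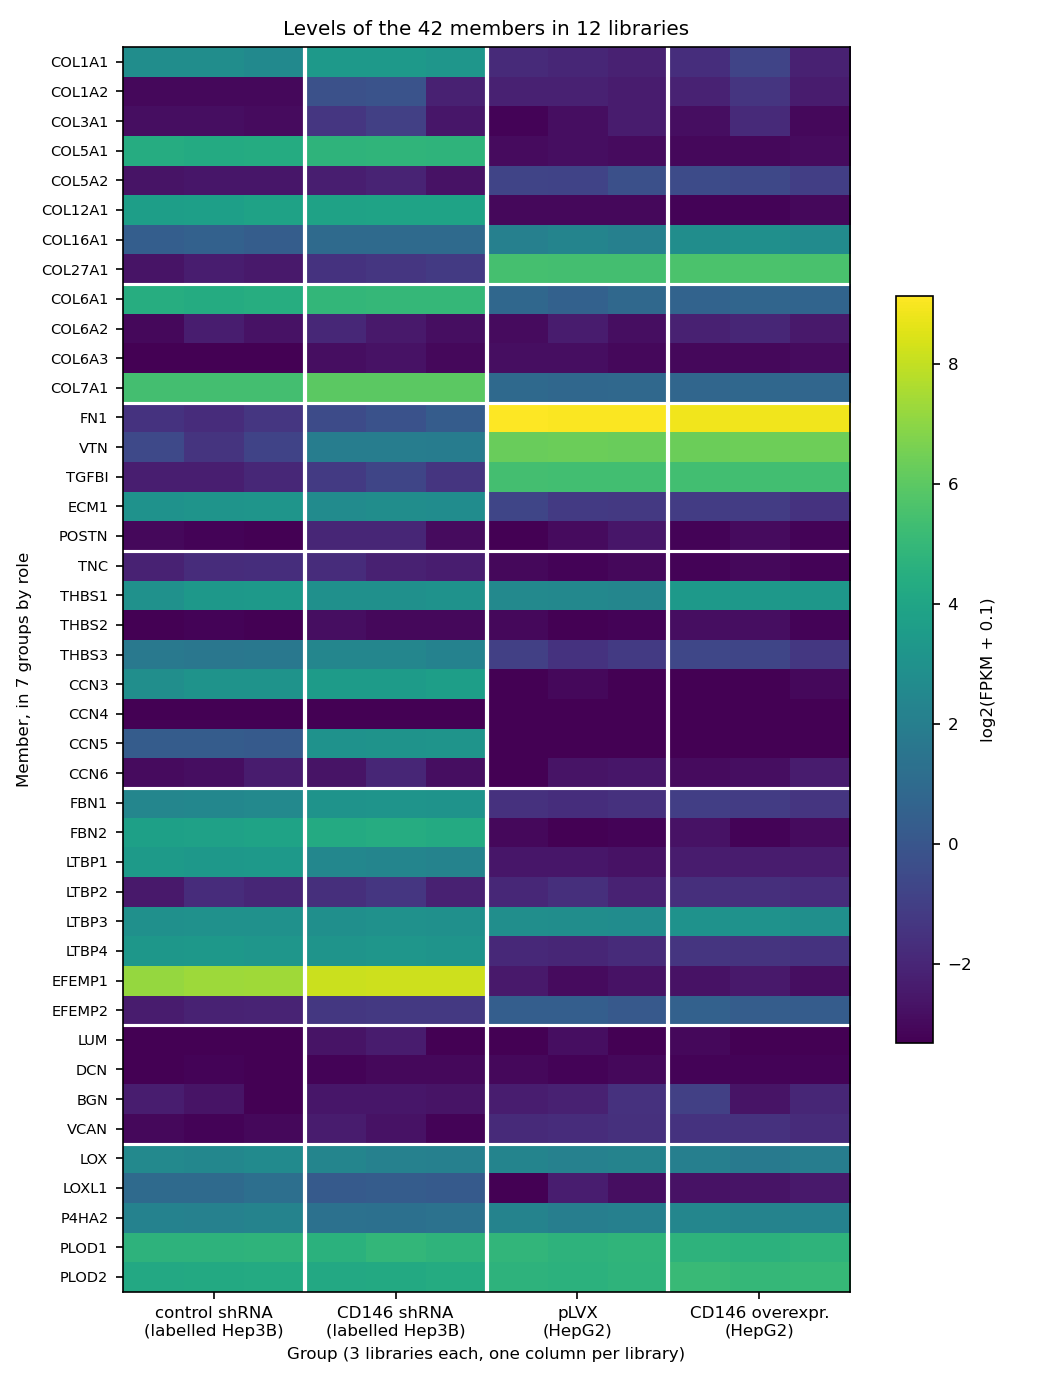
The colour gives log2(FPKM + 0.1) of each of the 42 members (rows, in 7 groups by role divided by white lines) in each of the 12 libraries (columns, 3 per group). EFEMP1 is brightest in the libraries labelled Hep3B and FN1 in HepG2, and the proteoglycans LUM, DCN, BGN and VCAN are dark in every library, at 0.41 FPKM or less.

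Promoter sequence from RefSeq (GRCh38.p14) was at hand for 31 of the 42 members, 300 bases each from 250 before to 50 after the annotated start, with 6 members having more than 1 start. Shown are 3 members that rose with the CD146 shRNA (COL7A1, and COL16A1 and FBN1, which also rose with CD146 overexpression), 1 that fell (P4HA2) and 1 that fell with the shRNA and rose with overexpression (THBS1). They lie at chr3:48595280-48595579 (minus strand), chr1:31703968-31704267 (minus), chr15:48644921-48645220 (minus), chr5:132227042-132227341 (minus) and chr15:39580829-39581128 (plus). Capitals mark matches on either strand to the letters GGAATG (bound by TEAD factors), TGANTCA (AP-1), GGGCGG (Sp1) and CAGAC (SMAD factors). None of these contains another.
COL7A1: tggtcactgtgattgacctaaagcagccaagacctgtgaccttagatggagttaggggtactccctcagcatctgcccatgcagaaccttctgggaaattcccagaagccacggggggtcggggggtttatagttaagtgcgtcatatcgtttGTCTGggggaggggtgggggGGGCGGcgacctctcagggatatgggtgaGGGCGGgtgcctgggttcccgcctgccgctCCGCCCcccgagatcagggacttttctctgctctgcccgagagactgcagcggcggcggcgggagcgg
COL16A1: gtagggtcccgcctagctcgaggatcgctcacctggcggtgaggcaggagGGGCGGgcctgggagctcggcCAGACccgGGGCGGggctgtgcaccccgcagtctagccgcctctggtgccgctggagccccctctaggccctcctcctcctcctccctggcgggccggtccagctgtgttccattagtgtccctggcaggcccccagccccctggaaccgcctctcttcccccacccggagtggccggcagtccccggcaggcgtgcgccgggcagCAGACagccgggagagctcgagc
FBN1: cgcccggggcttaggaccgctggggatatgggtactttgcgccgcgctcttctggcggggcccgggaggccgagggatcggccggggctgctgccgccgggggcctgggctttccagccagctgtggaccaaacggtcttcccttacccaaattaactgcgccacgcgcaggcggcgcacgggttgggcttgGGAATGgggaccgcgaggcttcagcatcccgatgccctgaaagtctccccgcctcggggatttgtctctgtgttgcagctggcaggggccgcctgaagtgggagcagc
P4HA2: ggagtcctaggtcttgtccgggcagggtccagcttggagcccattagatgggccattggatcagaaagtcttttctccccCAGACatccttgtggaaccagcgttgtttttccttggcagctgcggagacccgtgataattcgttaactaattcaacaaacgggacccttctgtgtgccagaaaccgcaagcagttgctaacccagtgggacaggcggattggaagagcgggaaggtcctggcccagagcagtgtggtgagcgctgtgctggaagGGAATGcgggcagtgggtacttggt
THBS1: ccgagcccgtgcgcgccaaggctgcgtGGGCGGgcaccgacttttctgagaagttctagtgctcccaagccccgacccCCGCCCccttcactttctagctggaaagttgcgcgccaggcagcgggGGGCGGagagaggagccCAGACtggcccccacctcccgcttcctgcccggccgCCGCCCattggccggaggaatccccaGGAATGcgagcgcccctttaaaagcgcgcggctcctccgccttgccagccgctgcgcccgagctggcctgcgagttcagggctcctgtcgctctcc
THBS1 held 4 GGGCGG, 1 GGAATG and 1 CAGAC. COL7A1 held 3 GGGCGG and 1 CAGAC, COL16A1 held 2 of each, FBN1 held 1 GGAATG, and P4HA2 held 1 GGAATG and 1 CAGAC. Of all 35116 promoters, 14.0% held GGAATG, 7.7% TGANTCA, 45.0% GGGCGG and 45.3% CAGAC, against 20.5%, 5.1%, 66.7% and 56.4% of the 39 promoters of members. The next counts are of genes with a match in any of their promoters, so they cannot be set against these shares. GGGCGG was found for 10 of 12 members with a promoter that rose with the CD146 shRNA and for 3 of 6 that fell. CAGAC was found for 4 of 12 and 6 of 6, GGAATG for 3 of 12 and 2 of 6, and TGANTCA for 0 of 12 and 1 of 6. Of all 31 members with a promoter, 22 held GGGCGG, 18 held CAGAC, 8 held GGAATG and 2 held TGANTCA. These matches are a description of the letters, and no test was made.

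The first comparison asked how the members differed when CD146 was lowered in libraries labelled Hep3B. Most of those tested were higher with the CD146 shRNA: fibrillar, beaded and anchoring collagens, vitronectin, fibronectin, CCN5, fibulin-3 and both fibrillins rose. The 6 members that fell were the enzymes P4HA2, LOXL1 and LOX, with LTBP1, ECM1 and THBS1. The endothelial markers CDH5 and VWF also rose and PECAM1 did not pass, as given with the other markers. Genes are said to have risen or fallen where the Benjamini-Hochberg adjusted p of edgeR's quasi-likelihood test, over all genes tested, was under 0.05.

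Of the 30 members with enough counts to be tested, 18 rose, 6 fell and 6 did not pass the threshold. The share called was 80.0%, against 55.3% of all 16968 genes tested, of which 26.8% rose and 28.5% fell. Their median log2 fold change was 0.61, against 0.00 over all genes. The 3 treated libraries lay all above or all below the 3 controls in CPM for 23 of the 30, as for 59.8% of all genes tested. For each such member an exact 2-sided permutation test gives p = 0.1, the smallest that 3 against 3 libraries allow. At least 2-fold changes were upward for 7 members, among them COL1A2, VTN and EFEMP2, and downward for 1. The share of all genes with such changes was not counted. COL1A2 reached the low-count filter (0.60 CPM in 3 libraries) only through the treated libraries and so had to differ. VTN and EFEMP2 reached it in every treated library but not in every control. Of the other 27 members tested, 15 rose and 6 fell.

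Of the fibrillar and fibril-associated collagens, 6 were tested and all 6 were called higher, COL1A2 with the limit just given. COL27A1 (chromosome 9, 114155560 to 114312511, plus strand, GRCh38 as are all gene positions here) had 0.826, 1.37 and 1.07 CPM in the controls and 3.49, 4.16 and 4.70 CPM in the treated libraries. The groups did not overlap (log2 fold change 1.92, SE 0.24, adjusted p = 5.2e-09). COL1A1, the major chain of type I collagen (chromosome 17, 50183289 to 50201632, minus strand), stood at 59.9, 60.5 and 53.7 against 97.1, 96.6 and 84.2 CPM (edgeR log2 fold change 0.68, SE 0.06, adjusted p = 2.4e-13). COL16A1, a fibril-associated collagen, stood at 11.3, 12.4 and 10.8 against 17.5, 17.8 and 18.0 CPM (0.63, SE 0.09, adjusted p = 2.2e-07). All treated libraries lay above all controls for both genes. COL5A1, which helps to start collagen fibrils, rose from a mean of 224 ± 4.38 to 315 ± 8.08 CPM (0.49) and COL12A1, a collagen on fibril surfaces, from 249 ± 18.3 to 284 ± 11.3 CPM (0.19).

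COL1A2 differed widely among its treated libraries. It lies on the plus strand of chromosome 7 from 94394561 to 94431232. Each control shRNA library held 3 COL1A2 counts, the floor, and the CD146 shRNA libraries held 148, 150 and 19. It entered the test only through the treated libraries, so no fold or p is given.

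Other interstitial matrix genes showed the same order of libraries at counts too low to test. COL3A1, the chain of type III collagen, had 5, 4 and 3 counts in the controls and 36, 49 and 7 in the CD146 shRNA libraries. POSTN (periostin, which binds collagen and integrins) had 2, 1 and 0 against 15, 14 and 2. COL6A3 had 1, 0 and 1 against 14, 19 and 7. The large proteoglycan VCAN had 5, 3 and 6 against 24, 13 and 3, and LUM, a small collagen-binding proteoglycan, had none in the controls and 3, 4 and 0. In each, replicates 1 and 2 were the highest treated libraries and replicate 3 was closest to the controls.

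Genes outside the 42 that were named after their values had been seen followed the same libraries. GREM1, a secreted BMP antagonist, had 0, 1 and 0 counts in the controls and 93, 71 and 5 with the CD146 shRNA. MMP1, the interstitial collagenase, had 1, 0 and 2 against 35, 24 and 0, and IGFBP5 had 5, 1 and 1 against 69, 54 and 11. SPARC, a collagen-binding matricellular protein from the list of other matrix proteins, had 19, 10 and 16 against 107, 115 and 24. Of 12 markers of stellate cells and fibroblasts, 5 or 6 exceeded 3 counts in the controls and 7, 9 and 5 in the CD146 shRNA libraries, with a summed level of 2.66 to 3.38 against 3.31 to 3.83 FPKM. PDGFRA had 1 to 3 counts in the controls and 8, 12 and 3. Of the 5 tested, PDGFRB rose, with 86, 78 and 63 counts against 157, 141 and 126 (log2 fold change 0.86, adjusted p = 1.7e-06), and ACTA2 (-0.15), DES (-0.28), RGS5 (0.07) and TAGLN (0.26) did not pass. LRAT and FAP had at most 1 count in a library and HAND2 none. Of 8 endothelial markers, 3 were tested and 2 rose, 66.7% against 55.3% of all genes. The summed level of the 8 was 0.44 to 0.52 FPKM in the controls and 3.68 to 3.93 FPKM with the CD146 shRNA. CDH5 (VE-cadherin) had 11, 10 and 15 counts against 358, 354 and 270 (log2 fold change 4.72, adjusted p = 1.5e-25), and VWF had 12, 12 and 17 against 38, 38 and 37 (1.43). PECAM1 did not pass (0.18), TEK and EMCN had at most 4 counts and 1 count in a library, and KDR had none. The part of such cells in these results was not tested. A fit without CD146 shRNA replicates 1 and 2 together was chosen after the values had been seen. In it, every member called with all libraries kept its direction, with THBS1 at a log2 fold change of -0.19. That fit has 1 treated library, assumed to vary like the controls, so calls from it are not counted.

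**Figure D2:**
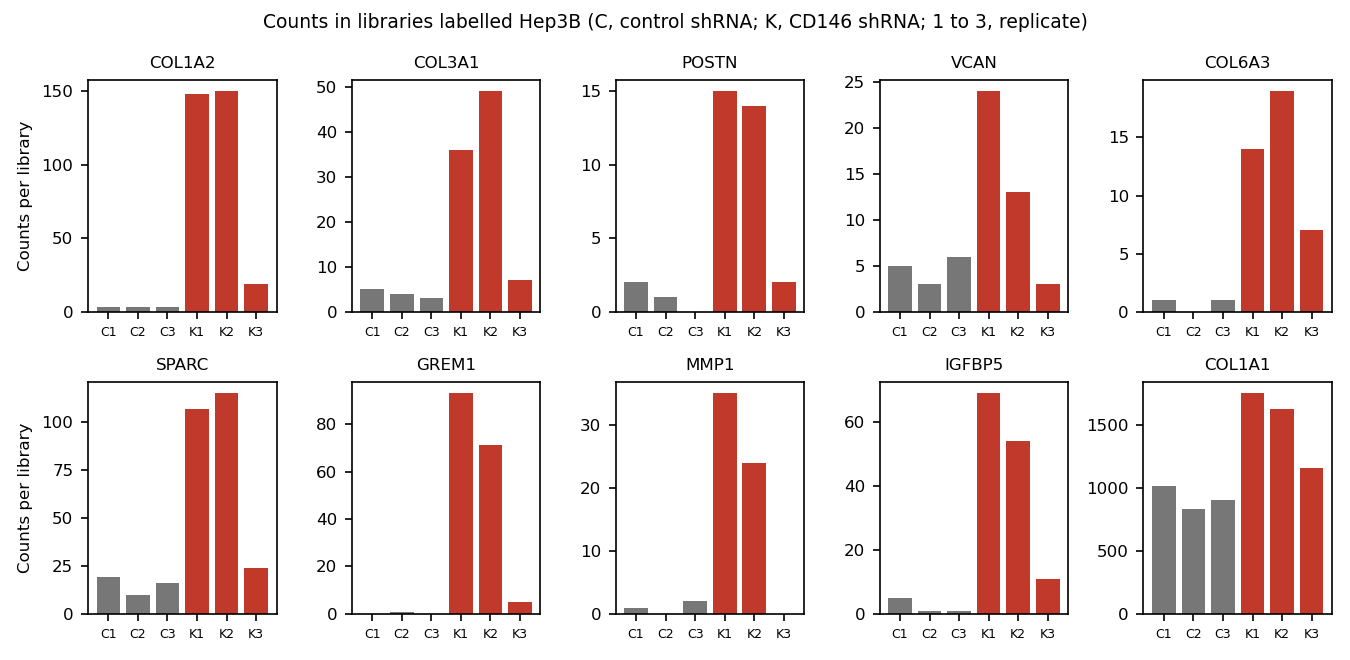
Bars give the counts of 10 genes in each library labelled Hep3B (C1 to C3, control shRNA; K1 to K3, CD146 shRNA; a scale of its own for each gene, from 0). COL1A2, COL3A1, POSTN, SPARC, GREM1, MMP1 and IGFBP5 are high in K1 and K2 and low in K3, while COL1A1 is above the controls in all 3.

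The beaded and anchoring collagens that could be tested both rose, with little spread. COL7A1, which anchors basement membranes to the matrix below (chromosome 3, 48564073 to 48595267, minus strand), rose from 469 ± 5.65 to 724 ± 6.05 CPM (edgeR log2 fold change 0.63, SE 0.04, adjusted p = 7.9e-17). COL6A1, a chain of beaded filament collagen (chromosome 21, 45981737 to 46005050, plus strand), rose from 115 ± 4.06 to 174 ± 2.77 CPM (0.60, SE 0.04). COL6A2 had 2, 7 and 4 counts in the controls and 15, 7 and 3 with the CD146 shRNA and was not tested.

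Of 4 adhesive glycoproteins tested, 3 were called higher, from low levels, and ECM1 fell. VTN (chromosome 17, 28367276 to 28373091, minus strand) had 1.06, 0.505 and 0.891 CPM in the controls and 7.25, 7.48 and 7.16 CPM in the treated libraries. The log2 fold change was 3.11 (SE 0.21). VTN did not reach the low-count filter in every control, and its treated libraries nearly coincided. FN1 (chromosome 2, 215360440 to 215436172, minus strand) stood at 4.25, 3.39 and 4.99 against 10.9, 13.8 and 19.7 CPM (1.77, SE 0.16, adjusted p = 2.3e-12). Its highest library was replicate 3, the one that held hepatocyte transcripts, and without it the log2 fold change was 1.53 (adjusted p = 3.4e-10). TGFBI (chromosome 5, 136028895 to 136063818, plus strand) stood at 0.826, 0.866 and 1.19 against 2.66, 3.92 and 2.24 CPM (1.61, SE 0.27, adjusted p = 2.7e-06).

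These raised levels remained far under those of HepG2. With the CD146 shRNA, VTN was at 4.64% to 4.84% of its pLVX level, FN1 at 0.115% to 0.204%, TGFBI at 0.689% to 1.20% and COL27A1 at 0.572% to 0.758%. In CD146 shRNA replicates 1 and 2, the hepatocyte markers stood at 0.0055% and 0.0056% of pLVX beside VTN at 4.78% and 4.84%. In replicate 3 they stood at 0.110% beside VTN at 4.64%. The part of hepatocyte transcripts in the VTN level was not tested. ECM1, a secreted protein that binds several matrix proteins, fell, with 26.4, 28.9 and 30.2 against 21.7, 23.7 and 22.4 CPM (edgeR log2 fold change -0.33, SE 0.07, adjusted p = 2.0e-04).

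Among matricellular genes, CCN5 changed most. CCN5 (ENSG00000064205, chromosome 20, 44714844 to 44728509, plus strand), a CCN protein that lacks the C-terminal domain of its relatives, had 5.55, 5.70 and 5.23 CPM in the controls and 39.9, 43.0 and 43.4 CPM in the treated libraries. The groups were far apart compared with their spread (log2 fold change 2.94, SE 0.09, adjusted p = 4.2e-27). CCN3, a relative, stood at 18.3, 21.5 and 21.4 against 29.9, 30.7 and 34.0 CPM (0.63, SE 0.08, adjusted p = 5.5e-09). THBS3, a pentameric thrombospondin, stood at 14.5, 13.5 and 14.1 against 24.3, 24.2 and 21.3 CPM (0.73, SE 0.08, adjusted p = 1.4e-09). Its exons overlap 1027 bases of an antisense gene (AC234582.1, 414 counts in all libraries against 1969 for THBS3), and since the strand setting of the counting is not given in the sources used here, its level is uncertain.

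THBS1, the thrombospondin known to activate latent TGF-beta, fell slightly with overlapping groups: 71.2, 89.7 and 95.7 CPM in the controls and 69.6, 71.8 and 74.3 CPM in the treated libraries (log2 fold change -0.25, SE 0.06, adjusted p = 0.0011). Without CD146 shRNA replicates 1 and 2 it did not pass (adjusted p = 0.055). The tenascin gene TNC stood at 1.69 ± 0.394 and 1.35 ± 0.519 CPM and did not pass (adjusted p = 0.43). THBS2 had at most 5 counts and CCN6 at most 5 counts in a library, and CCN4 had 0 counts in all 12, which allows up to 0.165 to 0.235 CPM per library.

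Microfibril genes moved in both directions. EFEMP1 (chromosome 2, 55865967 to 55924139, minus strand), already the most abundant member, had 568, 635 and 637 CPM in the controls and 1139, 1198 and 1203 CPM in the treated libraries (log2 fold change 0.94, SE 0.04, adjusted p = 5.5e-21). Its share of the summed FPKM of the members was 49.1%, 49.1% and 49.9% in the treated libraries. FBN1, the main microfibril protein (chromosome 15, 48408306 to 48645849, minus strand), stood at 92.9, 99.6 and 106 against 154, 166 and 156 CPM (0.67, SE 0.05, adjusted p = 4.3e-15). FBN2, the other fibrillin, rose from 183 ± 11 to 269 ± 9.47 CPM (0.56) and EFEMP2, a fibulin needed for elastic fibres, from 0.655 ± 0.161 to 1.73 ± 0.0613 CPM (1.39), with the limit given for its filter.

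LTBP1, which tethers latent TGF-beta to the matrix (chromosome 2, 32946972 to 33399509, plus strand), went the other way. It had 78.3, 72.2 and 76.9 CPM in the controls and 39.7, 37.2 and 34.7 CPM in the treated libraries, a fall with no overlap (log2 fold change -1.02, SE 0.06, adjusted p = 2.0e-18). Its relatives LTBP3 and LTBP4 did not pass the threshold, with means of 88.2 and 88.4 CPM (adjusted p = 0.95) and of 76.7 and 73.5 CPM (adjusted p = 0.32). LTBP2 stood at 1.27 ± 0.549 and 1.96 ± 0.787 CPM (adjusted p = 0.056), and passed the test without control shRNA replicate 2 (adjusted p = 0.018) or without CD146 shRNA replicate 3 (0.013).

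Of the 5 enzymes of collagen hydroxylation and crosslinking among the members, 3 fell and none rose. The share called was 60%, near the 55.3% of all genes. Several such enzymes outside the 42 rose, among them LOXL4 (log2 fold change 1.15, SE 0.31), LOXL2 (0.84), P4HB (0.67), P4HA1 (0.18) and PLOD3 (0.17). LOXL3 did not pass (-0.16). P4HA2, a catalytic subunit of prolyl 4-hydroxylase (chromosome 5, 132191838 to 132295315, minus strand), had 44.3, 44.3 and 46.7 CPM in the controls and 24.6, 24.0 and 26.0 CPM in the treated libraries (log2 fold change -0.86, SE 0.07, adjusted p = 1.6e-14). LOXL1, a lysyl oxidase of elastic fibres (chromosome 15, 73925989 to 73952137, plus strand), stood at 6.67, 6.78 and 7.96 against 3.87, 4.16 and 3.98 CPM (-0.84, SE 0.15, adjusted p = 5.8e-06). LOX, the main lysyl oxidase (chromosome 5, 122063195 to 122078360, minus strand), stood at 31.3, 30.2 and 34.2 against 27.6, 24.6 and 23.9 CPM (-0.33, SE 0.07, adjusted p = 2.0e-04). In all 3 genes the treated libraries lay under every control. LOXL1 shares 335 exonic bases with LOXL1-AS1, and LOX shares 138 with SRFBP1, so both are uncertain in the same respect as THBS3.

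The lysyl hydroxylases did not pass the threshold. PLOD1 stood at 140 ± 2.35 and 148 ± 15.8 CPM (adjusted p = 0.25) and PLOD2 at 143 ± 5.74 and 149 ± 7.39 CPM (adjusted p = 0.37). PLOD1 passed when CD146 shRNA replicate 1 was left out (log2 fold change 0.16, adjusted p = 0.0045). Not tested for lack of counts were COL3A1, COL5A2, COL6A2, COL6A3, POSTN, THBS2, CCN4, CCN6 and all 4 proteoglycans. DCN and BGN, small leucine-rich proteoglycans, had at most 4 counts in any library labelled Hep3B, and COL5A2 had 7, 7 and 8 against 15, 18 and 5.

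**Figure D3:**
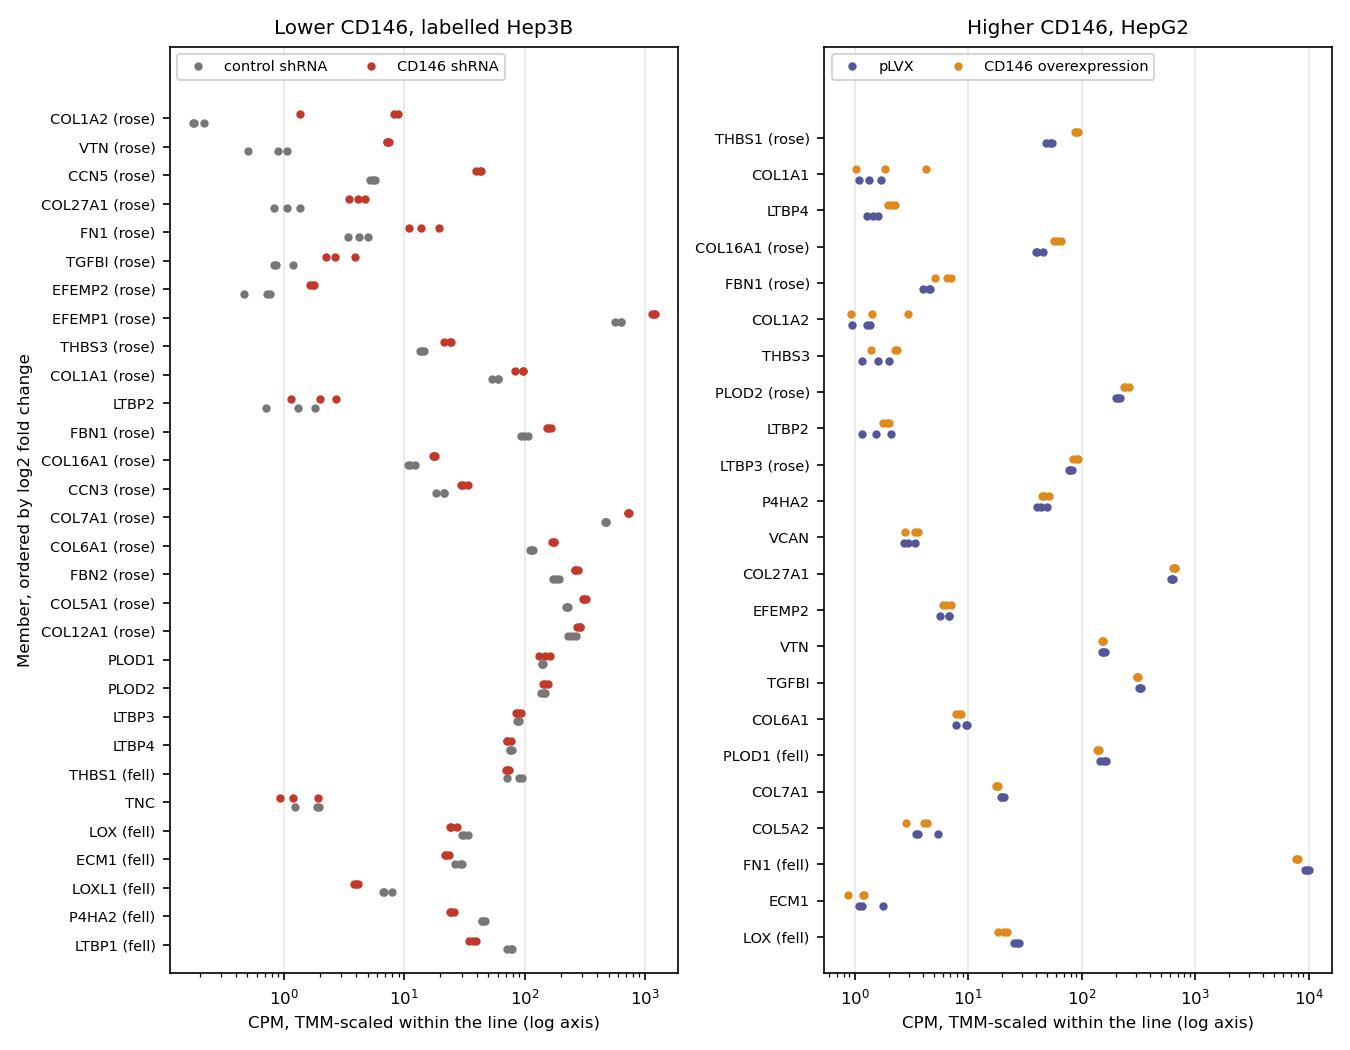
Each point is the CPM (log axis, TMM-scaled within the line) of 1 library for each member tested, ordered by log2 fold change, with lower CD146 on the left and higher CD146 on the right, and members that passed the test marked as rose or fell. On the left most pairs of groups are separate, with VTN and CCN5 far apart and COL1A2 split between 2 treated libraries and 1, and on the right most pairs overlap or lie close together.

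The second comparison asked how the members differed when CD146 was raised in HepG2. THBS1, FBN1, COL16A1, PLOD2 and LTBP3 rose, and FN1, LOX and PLOD1 fell. Of 23 members tested, 15 did not pass the threshold. The share called was 34.8%, against 19.8% of all 15300 genes tested, of which 9.55% rose and 10.3% fell. Groups did not overlap for 12 of the 23 members, as for 33.6% of all genes. The median log2 fold change was 0.09, against 0.00 over all genes, and no member changed 2-fold. Markers of other cell types moved in the same libraries. All 4 cholangiocyte markers tested rose, KRT19 from 27.5 ± 0.974 to 71.7 ± 5.24 CPM (edgeR log2 fold change 1.39, adjusted p = 4.9e-26), and the summed level of the 7 on the list was 192 to 209 FPKM with pLVX and 270.1 to 277 FPKM with CD146 overexpression. Of 4 stellate cell and fibroblast markers tested, ACTA2 (0.50) and TAGLN (0.55) rose and PDGFRB (-0.39) fell, with a summed level over the list of 10.95 to 10.96 against 15.1 to 16.1 FPKM. Their part in the results was not tested.

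THBS1 (chromosome 15, 39581079 to 39599466, plus strand) changed most. It had 54.6, 52.5 and 48.3 CPM in pLVX libraries and 92.4, 90.1 and 87.0 CPM under CD146 overexpression, with no overlap (log2 fold change 0.79, SE 0.05, adjusted p = 2.8e-19). Its exons overlap 448 bases of FSIP1, a gene on the opposite strand with 131 counts in all libraries against 13914 for THBS1. The other thrombospondin that could be tested, THBS3, stood at 1.60 ± 0.431 and 2.02 ± 0.549 CPM (adjusted p = 0.42).

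Among collagens only COL16A1 (chromosome 1, 31652247 to 31704319, minus strand) rose, from 40.4, 45.9 and 39.9 CPM to 60.6, 65.6 and 57.6 CPM (edgeR log2 fold change 0.53, SE 0.06, adjusted p = 1.0e-10). COL27A1, the most abundant collagen member in HepG2, stood at 625 ± 10.3 and 656 ± 9.5 CPM (0.07, adjusted p = 0.091). COL7A1 stood at 20.1 ± 0.702 and 18.0 ± 0.317 CPM (-0.16, adjusted p = 0.17), COL6A1 at 9.06 and 8.27 CPM (adjusted p = 0.54) and COL5A2 at 4.18 and 3.75 CPM (adjusted p = 0.62). For COL27A1 and COL7A1 the groups did not overlap, although neither passed the test.

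Type I collagen depended on 1 library. COL1A1 had 21, 22 and 15 counts with pLVX and 29, 58 and 18 with CD146 overexpression, and COL1A2 had 17, 21 and 13 against 22, 40 and 16. COL3A1 had 1, 4 and 9 against 4, 16 and 2. CD146 overexpression replicate 2 was the highest library for each. COL1A1 did not pass with all libraries (log2 fold change 0.74, SE 0.32, adjusted p = 0.092), stood at 0.07 (adjusted p = 0.93) without that replicate and passed without CD146 overexpression replicate 3 (1.13, adjusted p = 0.0085).

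FN1 fell from 10068, 9381 and 9618 CPM with pLVX to 7997, 7966 and 7818 CPM (edgeR log2 fold change -0.29, SE 0.03, adjusted p = 2.2e-12), and its share of the summed FPKM of the members was 63.3% to 63.4% with CD146 overexpression. In the same libraries, 8 of the 16 hepatocyte markers fell and 2 rose, and their summed level was 14553 to 14614 FPKM against 16618 to 17037 FPKM with pLVX. The part of this shift in the FN1 result was not tested. The other adhesive proteins did not pass. VTN stood at 155 ± 4.95 and 153 ± 2.46 CPM (adjusted p = 0.79), TGFBI at 327 ± 6.98 and 308 ± 2.97 CPM (adjusted p = 0.0503) and ECM1 at 1.35 and 1.09 CPM (adjusted p = 0.59).

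Of the microfibril genes, FBN1 had 4.61, 4.04 and 4.53 CPM in pLVX libraries and 7.08, 6.56 and 5.09 CPM under CD146 overexpression (log2 fold change 0.50, SE 0.15, adjusted p = 0.013). LTBP3, which escorts latent TGF-beta through secretion (chromosome 11, 65538805 to 65558930, minus strand), stood at 82.7, 79.1 and 77.8 against 92.2, 91.1 and 83.3 CPM (0.15, SE 0.05, adjusted p = 0.013). Neither group pair overlapped. Both calls were marginal: FBN1 did not pass without pLVX replicate 2 (adjusted p = 0.076) or CD146 overexpression replicate 1 (0.12), and LTBP3 did not pass without pLVX replicate 2 (0.050108) or 3 (0.072) or CD146 overexpression replicate 1 (0.11) or 2 (0.058). LTBP4 stood at 1.45 and 2.12 CPM (adjusted p = 0.13), LTBP2 at 1.59 and 1.904 CPM (0.62) and EFEMP2 at 6.42 and 6.48 CPM (0.98).

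Enzymes of collagen modification moved in both directions. PLOD2, which hydroxylates lysines in the telopeptides of collagen (chromosome 3, 146069440 to 146163653, minus strand), had 209, 200 and 219 CPM in pLVX libraries and 261, 239 and 243 CPM under CD146 overexpression (log2 fold change 0.24, SE 0.04, adjusted p = 6.3e-07). PLOD1 (chromosome 1, 11934205 to 11975538, plus strand) stood at 163, 145 and 157 against 138, 136 and 142 CPM (-0.15, SE 0.04, adjusted p = 0.0033). LOX stood at 28.2, 25.4 and 26.8 against 22.1, 18.4 and 20.9 CPM (-0.38, SE 0.08, adjusted p = 1.3e-04). No libraries of these pairs of groups overlapped. P4HA2 stood at 44.5 ± 4.38 and 48.1 ± 3.61 CPM (adjusted p = 0.19) and passed without pLVX replicate 1 (0.19, adjusted p = 0.023).

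VCAN was the only proteoglycan with enough counts to test in HepG2, at 3.04 ± 0.352 and 3.26 ± 0.432 CPM (adjusted p = 0.81). Members not tested there included EFEMP1, COL5A1, COL12A1, FBN2, LTBP1, LOXL1, TNC and CCN3, all under 1 CPM in every HepG2 library, and CCN5, with 0 counts in all 6.

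The responses to lower CD146 in libraries labelled Hep3B and to higher CD146 in HepG2 were then set side by side. Of 21 members tested in both, FN1 rose with the CD146 shRNA and fell with CD146 overexpression, and THBS1 fell and rose. COL16A1 and FBN1 rose in both and LOX fell in both. A further 9 rose with the shRNA and did not pass with overexpression, 2 fell and did not pass, 2 did not pass and rose, 1 did not pass and fell, and 2 passed in neither. The share of all genes with each pair of calls was not counted. The 10 members tested in neither were COL3A1, COL6A2, COL6A3, POSTN, THBS2, CCN4, CCN6, LUM, DCN and BGN.

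**Figure D4:**
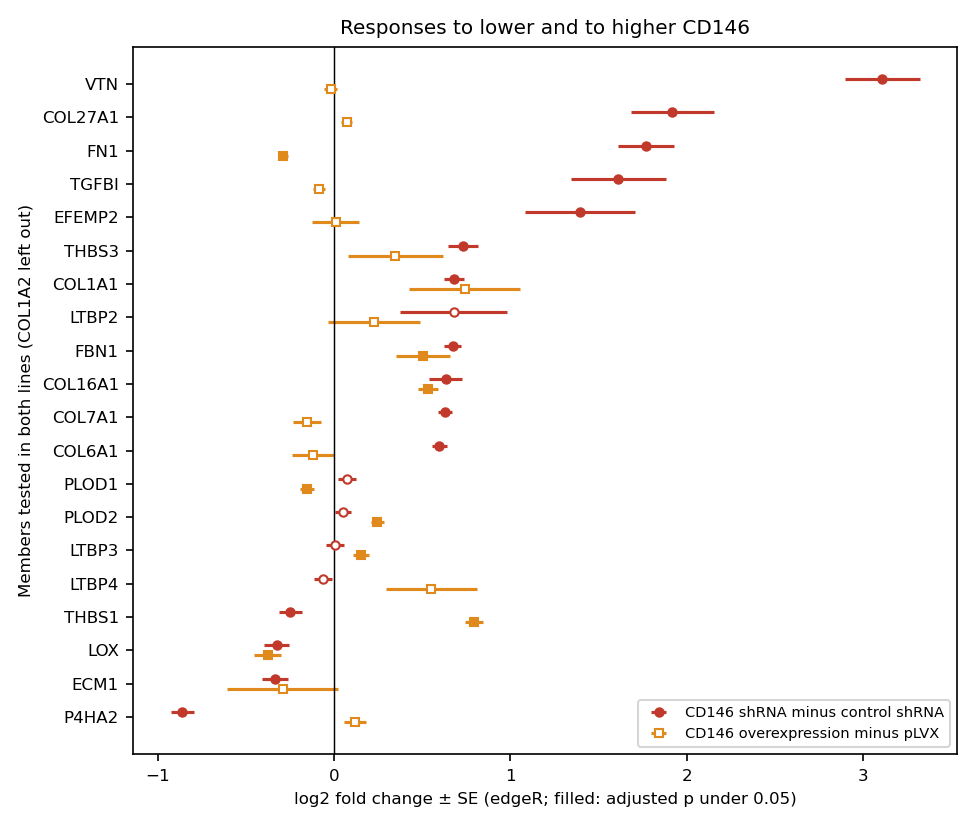
Points give the log2 fold change (bars, SE) of 20 of the 21 members tested in both lines with the CD146 shRNA (circles) and with CD146 overexpression (squares), filled where the adjusted p was under 0.05. COL1A2 is left out because its controls lay at the floor. VTN and EFEMP2 reached the low-count filter in every CD146 shRNA library but not in every control shRNA library. VTN, COL27A1, FN1 and TGFBI lie far to the right with the shRNA and near 0 or under it with overexpression, while COL16A1 and FBN1 lie to the right in both.

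The difference between these responses was tested in a fit of all 12 libraries, as the effect of higher CD146 in HepG2 minus that in the other line (control shRNA less CD146 shRNA). It uses the same libraries as the first comparisons and is not independent of them. Of 35 members tested, 18 had a higher and 2 a lower effect in HepG2, against 17.2% and 19.2% of all 18870 genes tested and 36.4% in either direction. The median over the members was 0.91, against 0.04 over all genes. Only 18 of the 35 reached the low-count filter in all 4 groups, and of these 11 had a higher and 2 a lower effect. VTN, which missed it in 1 control shRNA library, differed by 3.09: higher CD146 went with a change of -0.02 in HepG2 and lower CD146 with one of 3.11 in the other line. COL16A1 differed by 1.17 (adjusted p = 1.4e-13) and FBN1 by 1.18 (3.8e-09), since both were higher with more CD146 in HepG2 and higher with less CD146 in libraries labelled Hep3B.

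COL27A1 differed by 1.99 (adjusted p = 4.5e-12), FN1 by 1.48 (3.0e-11) and TGFBI by 1.53 (2.1e-07), all 3 mainly through their rise with the CD146 shRNA. FN1 went down with more CD146 in both lines, and more so in libraries labelled Hep3B. THBS1, which went up with more CD146 in both, differed by 0.55 (8.0e-07), with the larger effect in HepG2. P4HA2 differed by -0.74 (1.9e-09) and LOX by -0.70 (2.7e-07): LOX was lower with more CD146 in HepG2 and higher with more CD146 in libraries labelled Hep3B. CCN5 could not be compared, since it had 0 counts in HepG2.

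Between the control groups of the lines, nearly all members differed. Of 32 tested, 17 were higher in control shRNA libraries labelled Hep3B, 14 were higher with pLVX and 1 did not pass, against 85.2% called among all 17401 genes, 43% higher and 42.1% lower. For 14 of the 32, only 1 of the groups reached the low-count filter in all 3 libraries. Apart from VTN and EFEMP2, which also reached it in some control shRNA libraries, these had to differ. Of the other 18, 8 were higher, 9 were lower and 1 did not pass. Higher in libraries labelled Hep3B were EFEMP1 (156 against 0.0533 FPKM), FBN2 (14.0 against 0.01), COL12A1 (13.3 against 0.02), COL5A1 (20.3 against 0.0333), CCN3 (7.88 against 0.00667), CCN5 (1.11, listed at 0 with pLVX), LTBP1 (10.4 against 0.0633) and LTBP4 (9.56 against 0.17). Of these, only LTBP4 reached the filter in both groups. Lower in them were FN1 (log2 difference -11.45), COL27A1 (-9.48), TGFBI (-8.69) and COL16A1 (-2.18). Others that were lower reached the filter in all 3 libraries with pLVX only. These were VTN (0.437 against 79.4 FPKM), EFEMP2 (0.12 against 1.16), COL5A2 (0.0667 against 0.557) and VCAN (0.0167 against 0.203).

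Enzymes of collagen modification were expressed in both lines. LOX stood at 5.76 ± 0.381 FPKM with the control shRNA and 4.66 ± 0.22 with pLVX, P4HA2 at 4.50 and 4.28, PLOD1 at 26.7 and 28.3 and PLOD2 at 18.9 and 26.6. On counts LOX did not pass (edgeR log2 difference -0.04, adjusted p = 0.59). When FPKM were tested with limma, LOX was higher in libraries labelled Hep3B (0.30, adjusted p = 0.0059). On counts PLOD2 (log2 difference -0.84, adjusted p = 8.4e-37) and PLOD1 (-0.44, adjusted p = 3.4e-17) were lower in libraries labelled Hep3B, although PLOD1 did not pass when FPKM were tested (-0.09, adjusted p = 0.12). LTBP3 stood at 7.73 and 6.75 FPKM. On counts LTBP3 was lower in libraries labelled Hep3B (log2 difference -0.16, adjusted p = 0.0017) and P4HA2 likewise (-0.27), while both signs turned when FPKM were tested, a scaling that moved the median of all genes by 0.35.

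The wider pathway gives the setting. Among 30 other genes of collagen processing, chosen by name, 16 of 25 tested rose and 3 fell with the CD146 shRNA (median log2 fold change 0.18), a share called of 76% against 55.3% of all genes. FKBP10, a collagen chaperone of the endoplasmic reticulum, rose from 162 ± 4.26 to 286 ± 14.9 CPM (0.82, adjusted p = 3.7e-19). LOXL2, a lysyl oxidase, rose from 82.0 ± 4.88 to 148 ± 3.57 CPM (0.84), and P4HB, the other subunit of prolyl 4-hydroxylase, from 740 ± 25.6 to 1176 ± 102 CPM (0.67). COLGALT1, which adds galactose to hydroxylysine, fell from 291 ± 12.3 to 182 ± 9.82 CPM (-0.68). In HepG2, 2 of 23 rose and 9 fell with CD146 overexpression, 47.8% against 19.8% of all genes. LOXL4 rose from 12.4 ± 0.810 to 22.0 ± 1.67 CPM (0.83, adjusted p = 5.1e-11), and ADAMTS2, a procollagen N-proteinase, fell from 11.01 ± 0.695 to 6.57 ± 0.570 CPM (-0.74). P4HB fell by 0.18 and PCOLCE, an enhancer of procollagen processing, by 0.40 on the log2 scale.

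Among 55 other matrix proteins, 12 of 27 tested rose and 6 fell with the CD146 shRNA, 66.7% against 55.3% of all genes. CCN2 (connective tissue growth factor) rose from 30.9 ± 3.45 to 126 ± 10.0 CPM (edgeR log2 fold change 2.03, adjusted p = 1.1e-26), CCN1 from 55.2 ± 6.43 to 123 ± 10.6 CPM (1.15) and the fibulin FBLN1 from 255 ± 2.40 to 366 ± 21.0 CPM (0.52). MFAP5, a microfibril-associated protein, fell from 83.8 ± 2.96 to 42.7 ± 0.648 CPM (-0.97). With CD146 overexpression 3 of 20 rose and 7 fell, 50% against 19.8%. SPARC rose from 50.4 ± 3.09 to 111 ± 6.01 CPM (1.15, adjusted p = 6.8e-26) and SPP1 (osteopontin) from 611 ± 42.4 to 725 ± 18.4 CPM (0.25). CCN2 fell from 275 ± 3.21 to 210 ± 4.80 CPM (-0.39) and MATN3, a matrilin of cartilage, from 35.2 ± 0.587 to 21.9 ± 0.588 CPM (-0.68).

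Of 19 TGF-beta ligands, receptors and responsive genes, 6 rose and 8 fell with the CD146 shRNA (median log2 fold change -0.01), 73.7% against 55.3% of all genes. TGFBR3, a co-receptor, rose from 130 ± 6.85 to 253 ± 4.14 CPM (0.96, adjusted p = 3.0e-21), SMAD3 from 54.8 ± 3.36 to 93.6 ± 2.76 CPM (0.77) and SMAD2 from 126 ± 2.09 to 182 ± 11.4 CPM (0.54), both of them signal transducers. The ligand TGFB1 fell from 52.0 ± 1.08 to 36.6 ± 2.39 CPM (-0.50). With CD146 overexpression, 2 of 16 rose and 4 fell, 37.5% against 19.8%. Among them, SKIL, a SMAD-binding repressor, rose from 37.4 ± 3.66 to 43.4 ± 1.39 CPM (0.20). SMAD6 fell by 0.41 and the receptor TGFBR2 by 0.12 on the log2 scale.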

How the data were processed

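The authors deposited a table of raw counts for Ensembl genes and a table of FPKM values (per gene length and library size, rounded to 2 decimals). Tools named in the submitters' processing notes are HTSeq 0.6.1, HISAT2 2.2.1 and cutadapt 1.9.1. The build, annotation and strand setting are not given in the sources used here, and exons of 14 of the 42 members overlap another counted gene, so reads may have been shared or lost. Symbols were found for 61757 of 61806 IDs. Positions are from GENCODE v29 (GRCh38) and promoters from RefSeq.

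Groups came from the treatment labels. Counts were tested in R 4.3.3 with edgeR 4.0.16 (quasi-likelihood, TMM scaling, filterByExpr, 2-sided, Benjamini-Hochberg over all genes tested), each comparison on its own libraries and the difference of responses on all 12. CPM were TMM-scaled within a line. FPKM served for levels between genes or lines. The procedure was tested on simulated data. Alternatives were another scaling (RLE), DESeq2 1.42.0, no filter, a filter at 50 counts, limma 3.58.1 on log2(FPKM + 0.1), all 12 libraries in the fit, replicate blocks and leaving out libraries.

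The 42 members and the gene lists were chosen with earlier results of these data known. The naming rule gave every library for members called with separate groups and a mean of 2 CPM or more in either group (at most 12 per direction), and values for members of at least 20 CPM that were not called. It gave at most 8 per direction between lines, 10 for the difference and 4 per other list. Genes outside it are said to be so where they appear. Some genes of these lists are not reported here by name.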

Additional observations from a re-analysis of the deposited data

Results flagged for a closer look

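For 20 of 35 members tested (57.1%, against 36.4% of all 18870 genes tested), the effect of higher CD146 differed between the lines. The difference itself was tested (edgeR, all 12 libraries, adjusted p under 0.05). Values are log2 differences, HepG2 minus libraries labelled Hep3B. Among collagens these were COL1A1 (1.41), COL1A2 (5.505), COL3A1 (3.37), COL6A1 (0.48), COL6A3 (3.41), COL7A1 (0.47), COL16A1 (1.17) and COL27A1 (1.99). Among adhesive and matricellular genes they were FN1 (1.48), VTN (3.09), TGFBI (1.53), THBS1 (0.55) and THBS3 (1.08). The others were FBN1 (1.18), FBN2 (2.05), EFEMP2 (1.40), VCAN (1.54), LOX (-0.70), P4HA2 (-0.74) and PLOD2 (0.30).

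The values of COL1A2, COL3A1, COL6A3, VCAN and FBN2 are fitted against groups with few or no counts. These members passed the low-count filter only through the libraries in which they are high, so the values depend on the model's prior count and are neither fold changes nor bounds. VTN and EFEMP2 also missed the filter in part of the control shRNA group. Without CD146 shRNA replicates 1 and 2 together, COL3A1 (1.53, adjusted p = 0.31) and COL6A3 (2.72, adjusted p = 0.069) did not pass. Without CD146 overexpression replicate 2, COL1A1 (0.75, adjusted p = 0.057) and COL3A1 (2.02, adjusted p = 0.16) did not pass. VCAN did not pass without control shRNA replicate 2 (adjusted p = 0.052) or CD146 shRNA replicate 1 (0.26), and FBN2 did not pass without pLVX replicate 2 (0.099) or CD146 overexpression replicate 1 (0.12).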

How the results depend on the processing

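With 3 libraries per group, members near 3 counts could not be compared. Leaving out 1 library at a time gave 18 to 24 members that rose and 6 that fell with the CD146 shRNA, 3 to 6 and 3 with CD146 overexpression, 17 and 13 to 15 between lines, and 16 to 20 and 2 for the difference of responses. For the CD146 shRNA the number tested varied from 30 to 35, since the low-count filter then asked for fewer libraries. The 24 were of 35 tested, without CD146 shRNA replicate 3. Over all genes, that setting gave 4279 rises and 4527 falls among 17448 tested. Of the 5 that rose with overexpression, 3 did with DESeq2 (FBN1, adjusted p = 0.16, and LTBP3, 0.11, did not). With limma on FPKM, 1 fell with overexpression (main 3) and 9 were lower in libraries labelled Hep3B (main 14), and LTBP3 (0.19), LOX (0.30) and P4HA2 (0.0743) were then higher there. The same setting took THBS1 (adjusted p = 0.092) and COL12A1 (0.077) under the CD146 shRNA out of the calls. VCAN turned to -0.32 in the difference of responses without CD146 shRNA replicates 1 and 2. The cause was not tested. Over all genes, overexpression gave 684 rises and 930 falls with DESeq2 and 1028 and 371 with limma on FPKM, against 1461 and 1576, so that 73.5% of calls were upward on FPKM against 48.1%, and 63.6% against 50.5% between lines. Deviations of same-numbered libraries correlated at 0.12, 0.038 and 0.036 for the shRNA libraries and at -0.052, -0.034 and 0.014 for HepG2. Those of differently numbered libraries ran from -0.106 to 0.075 and from -0.072 to 0.096. With 3 libraries per group these values cannot exclude pairing. The numbers are not taken to pair libraries, since the labels do not say that they do. With a replicate block, 18 members rose and 6 fell with the CD146 shRNA, COL1A1 passed under overexpression (0.77, adjusted p = 0.041) and LTBP2 did not pass between lines (adjusted p = 0.059).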
